A study of Mus musculus with 16 samples.

Results

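The data concern 9 genes of the circadian clock, Per1, Per3, Dbp, Tef, Nr1d1, Arntl, Bhlhe41, Ciart and Cry1, in macrophages grown from the bone marrow of C57BL/6 mice that the series calls aged. They were picked by gene symbol from the 3071 genes of the authors' deposited comparison table, which lists the genes with an adjusted p under 0.05 among 17130 tested. RNA was sequenced in 8 control libraries (numbers 2, 3, 5, 7, 9, 10, 12 and 13) and 8 beta-glucan libraries (5, 6, 7, 8, 9, 10, 12 and 13). Bone marrow cells of both groups were cultured for 7 days in medium holding M-CSF (10 ng/mL), which drives macrophage formation. Controls then received PBS, and the other group beta-glucan at 10 µg/mL, a polysaccharide of the cell wall of Candida albicans, each for 24 hours, and all cells rested for 7 days with regular changes of medium. The labels give neither the age in months nor the hour at which cells were collected, and they do not say whether libraries came from separate mice.

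In the mammalian clock, the proteins of Arntl (BMAL1) and its partner CLOCK bind E-box DNA motifs and switch on the Per and Cry genes, whose products then repress them. Nr1d1 (REV-ERB alpha) represses Arntl in a second loop, while the PAR bZIP factors Dbp and Tef act on D-box motifs and pass the rhythm on to output genes. Macrophages carry such a clock, which shapes the timing of their inflammatory responses, and in cultured cells a serum or hormone stimulus can reset it.

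RefSeq promoter windows of GRCm38.p6, the build also called mm10, were matched for all 9 genes. Each window runs from 250 bases before to 50 bases after a transcript start, and some genes have more than 1. The E-box CACGTG was found in a window of 5 of the 9 genes (Per1, Tef, Bhlhe41, Ciart and Cry1), against 8.09% of 27025 genes with a window. Only Per3 of the 9 held the D-box TTANGTAA, against 2.72% of genes. The motif AGGTCA, the core read by ROR and REV-ERB receptors, was in windows of Per1 and Arntl, against 18.1% of genes, and the cAMP response element TGACGTCA was in none of the 9, against 2.03% of genes. Both strands were searched, and these motifs do not overlap in the windows shown. A match describes the letters and is no binding site, and motifs outside the windows were not searched. The windows with repeated E-boxes (Ciart, at 116, 58 and 44 bases before the start) and repeated D-boxes (Per3, at 205 and 158 bases before) are shown because they hold the motifs most densely, with Per1 and Cry1 as members that were lower and higher with beta-glucan. Capitals mark the motifs, and TGACCT is AGGTCA read on the other strand.
Ciart (chr3:95882179-95882478, - strand): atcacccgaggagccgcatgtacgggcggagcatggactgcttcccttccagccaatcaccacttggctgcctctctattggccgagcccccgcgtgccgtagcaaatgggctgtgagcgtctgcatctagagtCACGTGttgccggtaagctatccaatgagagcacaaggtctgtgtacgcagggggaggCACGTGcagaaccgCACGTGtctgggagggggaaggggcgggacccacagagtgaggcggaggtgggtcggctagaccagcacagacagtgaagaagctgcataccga
Per3 (chr4:151044616-151044915, - strand): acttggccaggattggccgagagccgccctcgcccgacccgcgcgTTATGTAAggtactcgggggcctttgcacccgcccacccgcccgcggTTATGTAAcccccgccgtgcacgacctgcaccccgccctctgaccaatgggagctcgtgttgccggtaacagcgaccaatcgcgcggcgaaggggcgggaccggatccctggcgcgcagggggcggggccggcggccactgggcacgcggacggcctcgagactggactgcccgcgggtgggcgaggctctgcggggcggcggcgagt
Per1 (chr11:69098699-69098998, + strand): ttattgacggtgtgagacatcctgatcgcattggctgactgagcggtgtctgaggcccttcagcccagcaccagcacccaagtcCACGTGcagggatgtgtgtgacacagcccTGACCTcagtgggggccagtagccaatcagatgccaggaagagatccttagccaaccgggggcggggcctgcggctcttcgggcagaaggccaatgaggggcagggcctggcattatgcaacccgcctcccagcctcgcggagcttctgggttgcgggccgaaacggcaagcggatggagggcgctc
Cry1 (chr10:85185005-85185304, - strand): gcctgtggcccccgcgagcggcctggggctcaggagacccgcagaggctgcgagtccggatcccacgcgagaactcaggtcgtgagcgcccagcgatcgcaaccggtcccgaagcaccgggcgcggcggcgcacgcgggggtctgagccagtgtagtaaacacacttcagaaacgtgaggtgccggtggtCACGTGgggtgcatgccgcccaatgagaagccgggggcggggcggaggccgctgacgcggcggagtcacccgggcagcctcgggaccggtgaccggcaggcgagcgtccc

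Of the 9 genes, 7 were lower and 2 higher in beta-glucan libraries in the authors' deposited table, which was the basis for choosing them. Their log2 fold changes there (beta-glucan over control) ran from -1.45 for Per3 (adjusted p = 1.10e-08) to 0.65 for Bhlhe41 (adjusted p = 0.0183). Closest to the limit of 0.05 among them was Cry1 (adjusted p = 0.0441), and genes just outside that limit are not analysed here. In that test 17.9% of the genes tested passed, 11.6% lower and 6.3% higher. In edgeR on the same counts, 6 of the 9 passed an adjusted p of 0.05, all lower. Of all genes tested 11% passed in either direction, 6.85% lower and 4.14% higher, but genes not listed were not fitted and could not pass. Among the 2738 listed genes fitted, 1882 passed, 1173 lower and 709 higher. As the genes were chosen from this contrast, these counts, fold changes and p-values describe them and support nothing further. The median log2 fold change of the 9 was -0.84, and over the 2738 listed genes fitted it was -0.41. DESeq2, which the submitters' notes also name, was rerun on the listed genes with the deposited size factors and passed all 9. It passed 2942 of the 3071 listed genes (17.2% of the genes tested), so this outcome was largely set by the listing.

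The libraries bear on what follows. A library held 4382665 to 5600727 reads on these listed genes, and its effective size came to between 15492864 and 20738976 reads. Controls 2 and 3 resembled each other (chi-square per degree of freedom 11.7 over the listed genes), as did controls 9 and 10 (10.9), where the 56 pairs within groups reached 202. For the 13 immediate-early genes in the table, controls 2, 3 and 5 stood highest (1.74, 1.51 and 0.89 above the mean over libraries, log2 scale), where the other controls ran from -0.55 to 0.27 and beta-glucan libraries from -0.96 to -0.13. Of these 13, 11 were listed as lower with beta-glucan, and none passed in edgeR without controls 2 and 3. Their choice is thus not independent of the high values in those controls, and the levels are given as a description. Of 11 macrophage markers 6 were in the table (54.5%, against 17.9% of all genes tested), 5 lower and 1 higher. The higher one was Cd14, a co-receptor for bacterial lipopolysaccharide (log2 fold change 0.52 ± 0.14, edgeR ± SE, adjusted p = 0.0249). Csf1r, the M-CSF receptor, had a median FPKM (reads scaled by gene length and library size) of 791 in control, and its log2 fold change was -0.68 ± 0.12 (edgeR ± SE, adjusted p = 0.00276). The summed FPKM of these 6 ran from 1798 to 3066 in control and from 1555 to 1815 with beta-glucan. Among markers of other cells, F13a1 (monocytes), Cd79b (B cells) and Mki67 (cycling cells) were in the table, all lower there (edgeR adjusted p = 0.000163, 0.0610 and 0.0991), and none of those for neutrophils, dendritic cells, osteoclasts, stroma, T cells or mast cells. The part of these differences in the clock gene values was not tested, and in bulk RNA fewer cells of a type and less RNA per cell cannot be told apart.

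**Figure D1:**
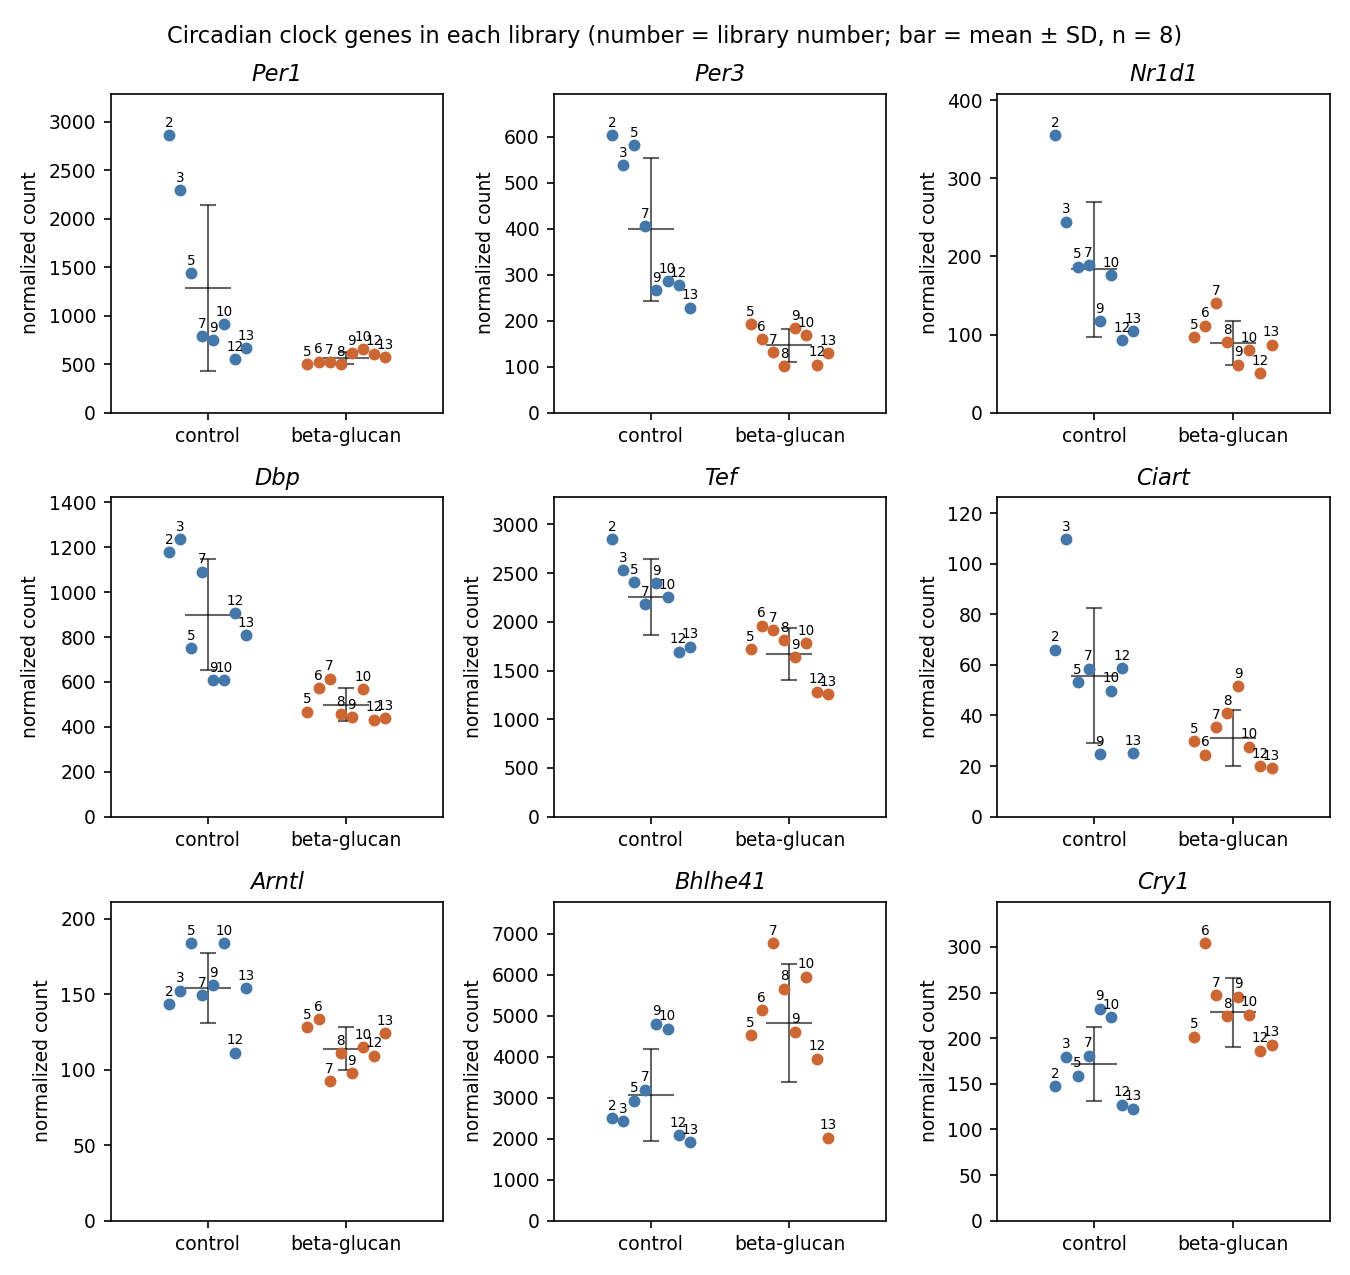
Normalized counts (y axis, linear from 0) of the 9 clock genes in the 8 control and 8 beta-glucan libraries, 1 panel a gene. Numbers are library numbers and bars are mean ± SD. Per3 is the panel in which no control lies within the beta-glucan range, and in the Per1 panel controls 2, 3 and 5 lie far above all others.

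Per1 and Per3 encode period proteins, which join with cryptochromes to repress CLOCK and BMAL1. In mm10, Per1 (ENSMUSG00000020893) lies at chr11:69095217-69109960 on the + strand, and Per3 (ENSMUSG00000028957) lies at chr4:151003652-151044665 on the - strand. Per3 had the largest difference of the 9 genes. Its normalized counts ran from 228 to 603 in control (median 346) and from 101 to 193 with beta-glucan (median 145), and it was the 1 clock gene whose groups did not overlap, against 7.52% of the listed genes (8.3% without controls 2 and 3, when it was again the only one). The log2 fold change was -1.44 ± 0.22 (edgeR estimate ± SE, n = 8 per group, as for all such values below). Controls 2, 3 and 5 had 603, 538 and 582 normalized counts of Per3, control 7 had 406, and the other 4 controls were between 228 and 286. All 8 thus lay above every beta-glucan library, by 2.73-fold in the means.

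Per1, which also answers directly to acute stimuli as an immediate-early gene, was spread far wider in control. Controls 2, 3 and 5 had 2862, 2298 and 1438 normalized counts, and the other 5 controls lay between 550 and 914. Beta-glucan libraries were all between 503 and 658 (median 549). The highest 3 controls thus set the control mean of 1282 ± 857 (SD), against 562 ± 58.5 with beta-glucan, and control 12 lay within the beta-glucan range. The log2 fold change was -1.19 ± 0.29. It was -0.59 without controls 2 and 3, and the call ended there (edgeR adjusted p = 0.0540).

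Nr1d1 (ENSMUSG00000020889) lies at chr11:98767932-98775333 on the - strand. This nuclear receptor gene, whose product represses Arntl, had 92.8 to 355 normalized counts in control (median 182) and 50.5 to 140 with beta-glucan (median 88.4). Controls 9, 12 and 13 lay within the beta-glucan range and the other 5 above it. Its log2 fold change of -1.03 ± 0.26 came to -0.69 without controls 2 and 3 (edgeR adjusted p = 0.105). Of its exon bases in GENCODE M21, 8.55% are shared with Thra on the opposite strand. The counting's strand setting is not stated, so reads from the shared stretch may be missing or may come from either gene.

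Ciart, which encodes a repressor that acts on CLOCK and BMAL1, was the gene with the fewest reads. Ciart (ENSMUSG00000038550) lies at chr3:95878503-95882251 on the - strand. It had 24.8 to 110 normalized counts in control (median 55.9) and 19.1 to 51.7 with beta-glucan (median 28.8), and 3 controls lay within the beta-glucan range. The log2 fold change was -0.84 ± 0.30 and did not pass in edgeR (adjusted p = 0.0841). Control 3 had the highest value, and without controls 2 and 3 the value was -0.53 (adjusted p = 0.592).

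The output factors Dbp and Tef were lower as well. Dbp (ENSMUSG00000059824) lies at chr7:45705088-45710203 on the + strand, and Tef (ENSMUSG00000022389) lies at chr15:81802421-81826863 on the + strand. Dbp, whose transcript has one of the strongest daily swings in mouse tissues, had 607 to 1236 normalized counts in control (median 857) and 432 to 614 with beta-glucan (median 462). Only controls 9 and 10, at 607 and 609, fell within the beta-glucan range, and the log2 fold change was -0.85 ± 0.15. With Sphk2 on the opposite strand it shares 18.0% of its exon bases, with the same limit as for Nr1d1. Tef ran from 1695 to 2849 normalized counts in control (median 2326) and from 1260 to 1959 with beta-glucan (median 1749). Its log2 fold change was -0.43 ± 0.12, and here controls 12 and 13 (1695 and 1744) were the ones within the beta-glucan range.

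Arntl, the activator of the loop, was lower too, as was its repressor Nr1d1. Arntl (ENSMUSG00000055116) lies at chr7:113207465-113314126 on the + strand. It had 111 to 184 normalized counts in control (median 153) and 92.4 to 134 with beta-glucan (median 113). Control 12, with 111, was the control within the beta-glucan range. The log2 fold change of -0.44 ± 0.13 passed in edgeR with all libraries (adjusted p = 0.0352) but in only 5 of 16 fits with a single library removed, and it was -0.46 without controls 2 and 3 (adjusted p = 0.0863).

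Bhlhe41 (DEC2) and Cry1, both repressors of CLOCK and BMAL1, were the pair with higher values. Bhlhe41 (ENSMUSG00000030256) lies at chr6:145858243-145865558 on the - strand, and Cry1 (ENSMUSG00000020038) lies at chr10:85131700-85185064 on the - strand. Bhlhe41 had 1908 to 4811 normalized counts in control (median 2716) and 2025 to 6772 with beta-glucan (median 4876). The log2 fold change was 0.65 ± 0.22 (edgeR adjusted p = 0.0639). Beta-glucan 13 had the 2025, below 7 of the 8 controls, and controls 9 and 10 had 4811 and 4682, so the groups overlapped broadly. In GENCODE M21, 19.0% of the exon bases of Bhlhe41 are shared with an unconfirmed transcript on the opposite strand. Cry1 had 123 to 232 normalized counts in control (median 169) and 186 to 304 with beta-glucan (median 225). Again controls 9 and 10, at 232 and 223, were the ones within the beta-glucan range, and the other 6 controls lay below it. The log2 fold change was 0.41 ± 0.15 (edgeR adjusted p = 0.0819).

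**Figure D2:**
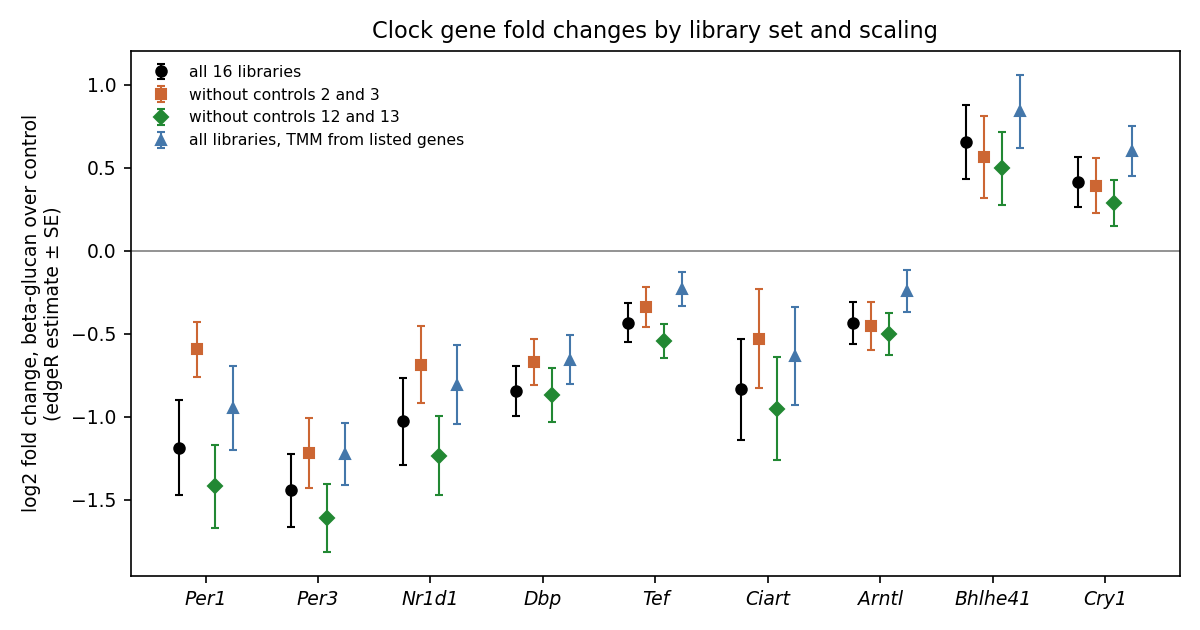
Log2 fold change of beta-glucan over control (y axis, edgeR estimate, bars are SE) for the 9 clock genes with all 16 libraries, without controls 2 and 3, without controls 12 and 13, and with TMM factors computed from the listed genes. The signs are the same in the 4 settings, and Per1 moves most without controls 2 and 3, from -1.19 to -0.59.

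How far the differences rest on controls 2 and 3 varied by gene. Without them 2 of the 9 genes passed in edgeR, Per3 (-1.22, adjusted p = 0.00842) and Dbp (-0.67, adjusted p = 0.0155). Of the 2748 listed genes fitted 629 passed, which is 3.67% of the genes tested. Of the full log2 fold change, 50.1% was left for Per1, 63.4% for Ciart, 66.8% for Nr1d1, 78.1% for Tef, 79.4% for Dbp and 84.5% for Per3. For Bhlhe41 it was 86.1%, for Cry1 94.7% and for Arntl 104%. In controls 12 and 13, 53.1% and 55.7% of all listed genes lay within the beta-glucan range. Without controls 12 and 13, 7 of the 9 passed, Ciart being the added one (-0.95, edgeR adjusted p = 0.0491). Of the 2767 listed genes fitted 2296 passed, which is 13.4% of the genes tested. The control libraries that came close to the beta-glucan level differed by gene. Controls 9 and 10 both lay within the beta-glucan range for Dbp, Bhlhe41, Ciart and Cry1, and controls 12 and 13 both for Tef and Nr1d1. Control 9 did so for Nr1d1 too, control 12 for Per1, Arntl and Bhlhe41, and control 13 for Ciart. Bhlhe41 was the 1 clock gene for which controls 2, 3, 5 and 7 lay within the beta-glucan range.

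The scaling also bears on the small differences. TMM factors computed from the listed genes, most of which were lower, moved all log2 fold changes up by a median of 0.19. On that scale Tef (-0.23, edgeR adjusted p = 0.274) and Arntl (-0.24, adjusted p = 0.53) no longer passed. Bhlhe41 (0.84, adjusted p = 0.0176) and Cry1 (0.60, adjusted p = 0.0145) did, which leaves 4 genes lower and 2 higher. Of the 2738 listed genes fitted 1566 passed, which is 9.14% of the genes tested. Over all listed genes, 66.2% of the calls were then higher, against 37.7% with the deposited factors. Per3, Dbp, Per1 and Nr1d1 passed with both scalings.

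Per length, Bhlhe41 was the most abundant clock transcript in both groups, with a median FPKM of 22.5 in control and 40.4 with beta-glucan. In control it was followed by Tef (16.5), Dbp (16), Per1 (8.42), Nr1d1 (3.29), Cry1 (2.83), Per3 (2.01), Ciart (1.38) and Arntl (1.14). The ranges of neighbours in this order overlapped in all 8 cases. With beta-glucan the order was Tef (12.4), Dbp (8.60), Per1 (5.43), Cry1 (3.75), Nr1d1 (1.60), Per3 (0.841), Arntl (0.838) and Ciart (0.709) after Bhlhe41. There 3 of the 8 neighbours were apart, namely Bhlhe41 above Tef, Dbp above Per1 and Cry1 above Nr1d1. Cry1 stood below Nr1d1 in control and above it with beta-glucan by median FPKM.

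Libraries of the control group varied more than those of the beta-glucan group in each of the 9 genes. The coefficient of variation (SD over mean) of normalized counts had a median over the 9 of 36.4% in control and 16.7% with beta-glucan. Over the 2378 listed genes with a mean of at least 50 normalized counts, the medians were 20.4% and 14.7%, and 71.2% of those genes varied more in control. For Per1 it was 66.8% in control, a value that 1.43% of those genes reached, and 10.4% with beta-glucan. Arntl had the lowest in control, 15%, and 12.6% with beta-glucan.

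Correlations within a group are not themselves the contrast between groups, but spread within groups enters the p-values by which the genes were listed. The genes were also chosen with earlier results of these data known, so the tests below are a description. They were computed for the 36 pairs of clock genes in each group over 8 libraries, on log2(normalized count + 1), with exact two-sided permutation tests and Benjamini-Hochberg adjustment over the 72 tests. The smallest p that 8 libraries allow is 4.96e-05. Per1, Per3, Nr1d1, Dbp, Tef and Ciart peak in neighbouring phases in mouse tissues. Over their 15 pairs in control the median r was 0.72, from 0.23 for Dbp with Tef to 0.92 for Per1 with Nr1d1, the 1 pair of these that passed. In beta-glucan libraries the median of the same pairs was 0.14. Over all pairs of the 2378 listed genes the median r was 0.02 in control and 0.00 with beta-glucan. The median size of r regardless of sign was 0.48 and 0.35. Whether the correlations differ between the groups was not tested. Without controls 2 and 3 the control median was 0.48.

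**Figure D3:**
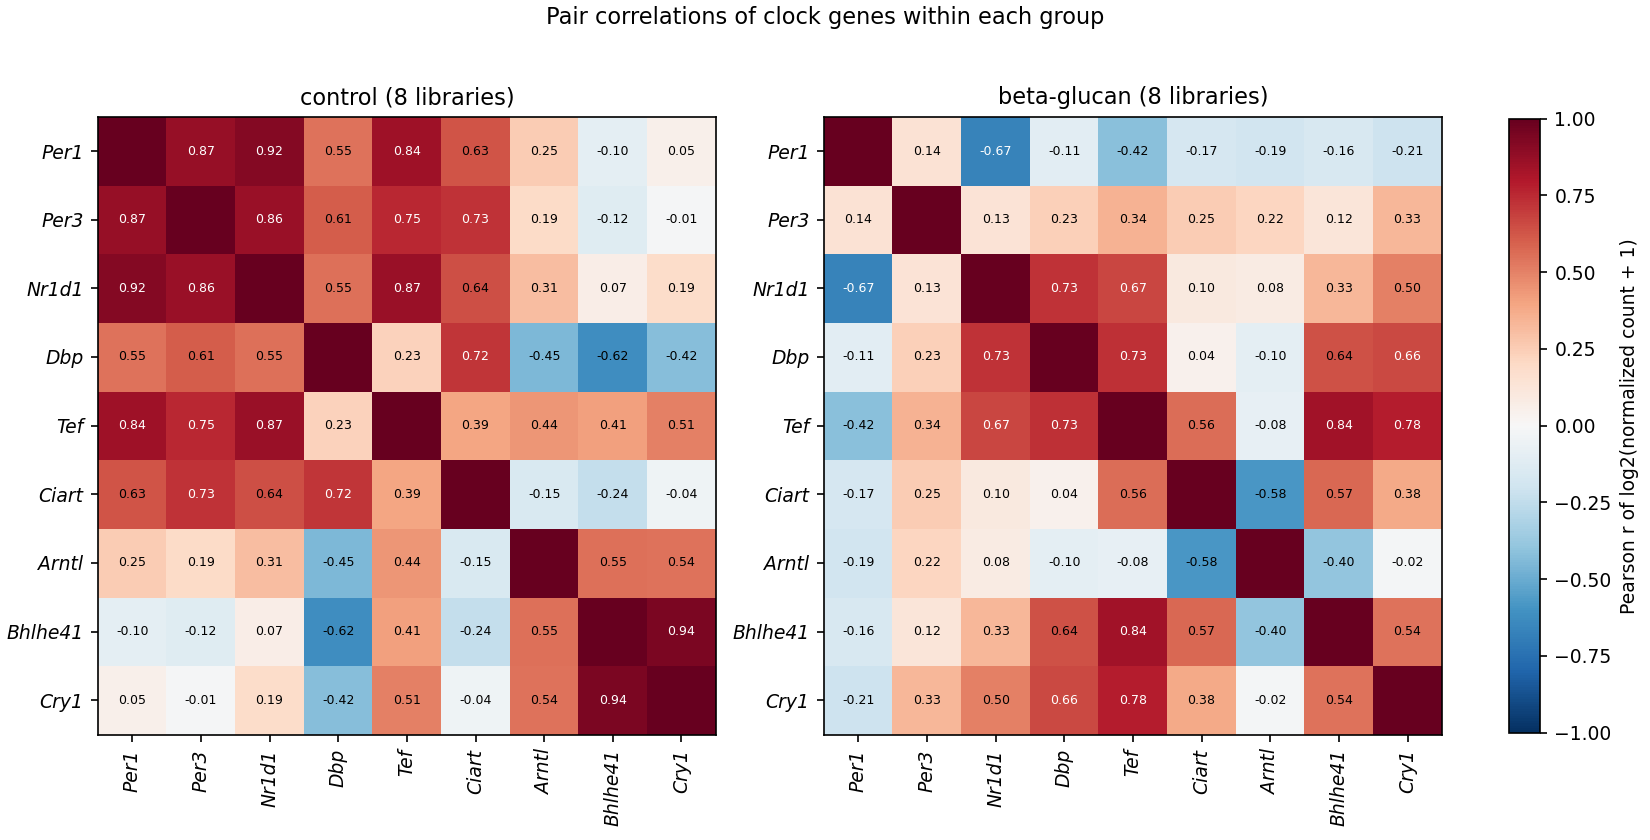
Pearson r between clock genes over the 8 libraries of each group (colour and number, log2 of normalized count + 1). The upper left block of 6 genes is red throughout in control (median r 0.72) and mixed with beta-glucan (median r 0.14).

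Past an adjusted p of 0.05 were 2 of the 36 pairs in control. The permutation test was not run over all pairs of the 2378 listed genes. Of those pairs 8.17% had an r of at least 0.8 in control and 2.39% with beta-glucan, a limit unlike the adjusted p. With beta-glucan the only clock pair with such an r was Tef with Bhlhe41. In control they were Bhlhe41 with Cry1, Per1 with Nr1d1, Per1 with Per3, Tef with Nr1d1 (0.87), Per3 with Nr1d1 (0.86) and Per1 with Tef (0.84). Bhlhe41 and Cry1 had r = 0.94 (exact permutation p = 0.00117, adjusted p = 0.0420; Spearman's rho = 0.93, permutation p = 0.00223, adjusted p = 0.0536). Without controls 9 and 10, the farthest from the median of Bhlhe41, r was 0.83. In beta-glucan libraries this pair had r = 0.54 (exact permutation p = 0.168, adjusted p = 0.418). Per1 and Nr1d1 had r = 0.92 in control (exact permutation p = 0.000570, adjusted p = 0.0411; rho = 0.93, permutation p = 0.00223, adjusted p = 0.0536) and 0.79 without controls 2 and 3. With beta-glucan their r was -0.67 (exact permutation p = 0.0727, adjusted p = 0.308). The third highest in control was Per1 with Per3, at r = 0.87 (exact permutation p = 0.00501, adjusted p = 0.0708; rho = 0.88, adjusted p = 0.0869) and 0.81 without controls 2 and 3.

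In the beta-glucan group Tef and Bhlhe41 passed, with r = 0.84 (exact permutation p = 0.00198, adjusted p = 0.0476; rho = 0.81, permutation p = 0.0218, adjusted p = 0.121). Without beta-glucan 12 and 13, the farthest from the median of Tef, r was 0.63. It was followed by Tef with Cry1 (r = 0.78, exact permutation p = 0.0182, adjusted p = 0.164) and by Dbp with Tef (r = 0.73, exact permutation p = 0.0448, adjusted p = 0.248). Dbp with Tef had r = 0.23 in control. Without 1 library of the group at a time, Bhlhe41 with Cry1 passed in 1 of 8 fits, Per1 with Nr1d1 in 3 of 8 and Tef with Bhlhe41 in 1 of 8.

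Arntl peaks opposite to Per, Dbp and Nr1d1 transcripts in mouse tissues. Here the r of Arntl with the 6 genes had a median of 0.22 in control and -0.09 with beta-glucan, and none of these pairs passed. Dbp with Arntl had r = -0.45 in control (exact permutation p = 0.270, adjusted p = 0.603; rho = -0.71, adjusted p = 0.244) and -0.10 with beta-glucan. Nr1d1 with Arntl had r = 0.31 in control (exact permutation p = 0.470, adjusted p = 0.787; rho = -0.10) and 0.08 with beta-glucan. The sign for Nr1d1 with Arntl thus turned with the rank measure. The lowest r in control were Dbp with Bhlhe41 (-0.62), Dbp with Arntl and Dbp with Cry1 (-0.42), and with beta-glucan Per1 with Nr1d1, Arntl with Ciart (-0.58) and Per1 with Tef (-0.42). Per3 with Dbp had r = 0.61 in control and 0.23 with beta-glucan, and neither passed.

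Per1 followed the immediate-early gene Fosb, an AP-1 transcription factor gene, across controls. Controls 2 and 3 were known to be high in immediate-early genes before the Fosb pairs were chosen. The tests thus describe a pattern that was partly seen beforehand. Fosb had 1746, 1329 and 760 normalized counts in controls 2, 3 and 5 and 125 to 486 in the others. Over the 8 controls r was 0.95 (exact permutation p = 0.000496, adjusted p = 0.00397 over 8 such tests; rho = 0.88, permutation p = 0.00724, adjusted p = 0.0579). It was 0.85 without controls 2 and 3, where it no longer passed (adjusted permutation p = 0.228). In the same family Nr1d1 with Fosb had r = 0.87 in control (exact permutation p = 0.00600, adjusted p = 0.0240; rho = 0.71, adjusted p = 0.154) and 0.82 without controls 2 and 12. Per3 with Fosb had 0.85 (exact permutation p = 0.0133, adjusted p = 0.0354; rho = 0.81, adjusted p = 0.0871) and 0.77 without controls 2 and 5. Dbp with Fosb had 0.42 (exact permutation p = 0.297, adjusted p = 0.340). With beta-glucan none of the 4 passed, and Per1 with Fosb had -0.44 (exact permutation p = 0.282, adjusted p = 0.340).

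**Figure D4:**
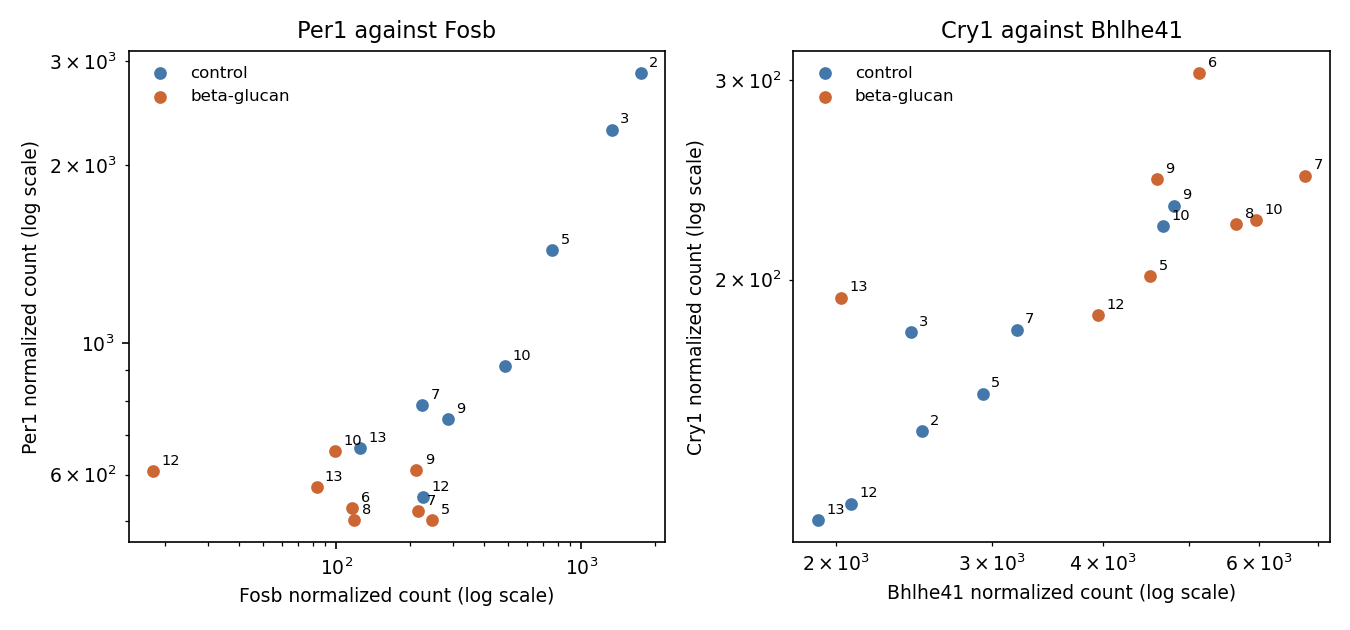
Normalized counts in each library (both axes on a log scale, numbers are library numbers) of Per1 against Fosb (left) and of Cry1 against Bhlhe41 (right). On the left the controls with more Fosb have more Per1 (r = 0.95), while beta-glucan libraries lie between 503 and 658 for Per1. On the right controls 9 and 10 sit among the beta-glucan libraries.

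Of 30 immediate-early genes 13 were in the table (43.3%, against 17.9% of all genes tested), 11 lower and 2 higher. In edgeR 6 fell and 2 rose, where 6.85% of all genes tested were called lower and 4.14% higher. Those with the smallest edgeR p were Fosb (-2.22 ± 0.53, adjusted p = 0.0120), the nuclear IkappaB protein gene Nfkbiz (-2.17 ± 0.52, adjusted p = 0.0123), Ier3 (-1.38 ± 0.34, adjusted p = 0.0141) and the histone demethylase gene Kdm6b (-1.95 ± 0.52, adjusted p = 0.0218). None of the 13 passed without controls 2 and 3. None of 17 targets of glucocorticoids and cAMP, signals that reset clocks in cultured cells, was in the table, and values of these genes are not analysed here.

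Other clock genes were taken from a list of 49 regulators, kinases and cofactors, of which 10 were in the table (20.4%, against 17.9% of all genes tested), 5 higher and 5 lower. The table held neither the partners Clock and Npas2 nor the paralogs Per2, Cry2, Nr1d2, Bhlhe40 and Hlf, and their values are not analysed here. In edgeR 5 of the 49 fell and 2 rose, where 6.85% of all genes tested were called lower and 4.14% higher. The median edgeR log2 fold change was -0.04 over the 10, against -0.41 over all 2738 listed genes fitted. Csnk1e, the kinase that marks period proteins for breakdown, fell from 1028 to 823 normalized counts (-0.32 ± 0.09, adjusted p = 0.0353). Its control range of 868 to 1200 overlapped the beta-glucan range of 704 to 956, and the call ended without controls 2 and 3 (-0.24, adjusted p = 0.183).

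The acetyltransferase genes Crebbp (-0.48 ± 0.13, edgeR adjusted p = 0.0237) and Ep300 (-0.44 ± 0.14, adjusted p = 0.0485), coactivators of CLOCK and BMAL1, fell, and so did Ncor1 (-0.47 ± 0.15, adjusted p = 0.0459), the corepressor that REV-ERB alpha recruits. The deacetylase gene Sirt1 (0.35 ± 0.11, adjusted p = 0.0432) and the AMPK subunit gene Prkaa1 (0.33 ± 0.10, adjusted p = 0.0476), both linked to the clock through metabolism, rose. Ppp1ca (0.23 ± 0.08, adjusted p = 0.0731), Skp1a (0.36 ± 0.13, adjusted p = 0.0829) and Prkaa2 (1.09 ± 0.41, adjusted p = 0.102) had positive values that did not pass. Clk4 (-0.74 ± 0.14, adjusted p = 0.00404) is a splicing kinase rather than a part of the clock. It was the 1 gene of the list still called without controls 2 and 3 (-0.68, adjusted p = 0.0235), against 3.67% of the genes tested. With TMM 4 rose and 1 fell, against 9.14% of the genes tested called in either direction. Csnk1e, Crebbp, Ep300 and Ncor1 no longer passed on that scale. When 1 library at a time was removed, the call was lost in 13 of 16 fits for Ncor1, Ep300 and Sirt1, in 12 for Prkaa1, in 8 for Csnk1e, in 2 for Crebbp and in 0 for Clk4.

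The authors' deposited enrichment tables hold clock terms, none with an adjusted p under 0.05. In the authors' deposited table for biological processes, circadian regulation of gene expression had 21 listed genes, 6 higher and 15 lower (35.6% of the term's genes against 17.4% of all, p = 0.000594, adjusted p = 0.169). It includes 7 of the 9 clock genes, all but Dbp and Tef. The KEGG pathway Circadian rhythm in the authors' deposited table had 10 listed genes, 5 higher and 5 lower (35.7% of the pathway's genes against 18.3%, p = 0.0216, adjusted p = 0.331), with 6 of the 9 among them.

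The genes most like Dbp and Arntl were sought among 2377 other listed genes with a mean of at least 50 normalized counts, by Pearson r over 16 libraries after each group's mean was removed. For Dbp they were Csad (r = 0.86), Tmem176b (0.85), Tmem176a (0.83), Ctsf (0.81) and Abtb1 (0.80). The most opposed were Abhd5 (-0.81), Osbpl8 (-0.79), Pik3cb (-0.78), Fbxo28 (-0.77) and Ticrr (-0.75). Ctsf owed its place to the controls, with r = 0.99 there and -0.17 with beta-glucan, whereas Tmem176b had 0.92 and 0.73. For Arntl they were Zfp318 (0.84), Rev3l (0.81), Nr2c2 (0.81), Ep300 (0.81) and Tmem245 (0.81), and the most opposed Akirin2 (-0.86), Fbxl15 (-0.79), Mpst (-0.79), Rce1 (-0.78) and Hps6 (-0.77). Ciart, with a mean of 55.7 normalized counts in control and 31.1 with beta-glucan, was below the limit of 50 over all libraries and was not searched. None of the other clock genes searched was among these for either gene. These values are the extremes of many and are given as a description.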

How the data were processed

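RNA from 16 libraries was measured by RNA sequencing. STAR 2.5, HTSeq 0.6.1, CASAVA, DESeq2 and mm10 are named in the submitters' processing notes. The annotation release and the strand setting were not found there. The deposited read counts per gene are raw. The authors' normalized counts (a signal) are those counts divided by 1 size factor per library (0.864 to 1.16), and the deposited FPKM equal these per kilobase, scaled to 17937135 reads. The authors' log2 fold changes and p-values cover genes past an adjusted p of 0.05, with 17130 tested according to rank and p.

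edgeR 4.0.16 in R 4.3.3 (glmQLFit, glmQLFTest, filterByExpr, two-sided) was run on the counts of all 3071 genes with the deposited size factors, since factors computed from preselected genes are distorted, and p was adjusted over 17130 genes. All 9 clock genes passed the filter. The SE beside edgeR values was computed as the size of the log2 fold change divided by the square root of the test's F. On simulated counts, of which 2746 genes were fitted, it found 52.2% of 67 genes changed 1.5-fold, 79.1% of 67 changed 2-fold and 100% of 66 changed 4-fold, with 1 unchanged gene called. Preselection makes these tests optimistic. If libraries are not separate cultures, p-values measure a spread that may be technical.

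The clock genes and lists were chosen with earlier results of these data known. Named genes were all 9, every listed gene of the other clock list, up to 4 immediate-early and 4 glucocorticoid and cAMP genes by p, the 3 highest and 3 lowest pairs per group and 4 set pairs, and the 5 most and least similar genes. The Fosb pairs other than with Per1 were added later. Aliases were dropped from the clock list. Alternatives were other scalings, DESeq2 1.42.0, no filter, a replicate block, left-out libraries and, for correlations, a pseudocount of 10 and ranks. Correlations and figures used matplotlib 3.10.9, numpy 2.4.6, scipy 1.17.1 and pandas 2.3.3 in Python 3.11.15. Gene overlaps came from GENCODE M21, whose start and end equal the deposited ones for all 9 genes.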

Additional observations from a re-analysis of the deposited data

How the results depend on the processing

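All 216 alternative fold changes of the 9 clock genes kept their sign. The genes were listed for a difference in these same libraries, most of which every fit shares, so this is a description and no support. The number of clock genes passing, 6, was 2 with the replicate block, 1 in the same 12 libraries without it (chosen after seeing the data) and 2 without controls 2 and 3. It was 4 to 7 with 1 library removed, and 4 without control 2, control 3 or beta-glucan 12. The listed genes changed, 1882, came to 355, 68 and 629 in those 3 settings, to 2942 with DESeq2 and to 1150 to 2276 without 1 library (1150, 1220, 1223 and 1206 without controls 2, 3, 5 and beta-glucan 8). The block uses 6 shared numbers, so both fits of these 12 libraries leave out controls 2 and 3 and beta-glucan 6 and 8. In these 12 libraries 1 clock gene and 68 listed genes passed without the block, and 2 and 355 with it. No label ties the numbers to a shared animal or day, and they were not treated as pairs. Of the 6 same-number correlations 3 were over 0.1, and 2 were the highest with their own number. DESeq2 called all 9 clock genes, but also 2942 of the 3071 listed genes, so the listing largely set that outcome.

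Without 1 library Per1, Per3, Dbp and Nr1d1 passed in all 16 fits, Tef in 13, Arntl in 5, Bhlhe41 in 3, and Ciart and Cry1 in 1 each. The control median r of the 6 genes was 0.48 without controls 2 and 3, 0.55 with TMM and 0.59 to 0.78 without 1 library. The beta-glucan median was 0.08 with TMM and 0.03 to 0.37 without 1 library. The median r with Arntl in control turned to -0.48 with TMM and -0.37 without controls 12 and 13, with -0.17 to 0.40 without 1 library (beta-glucan -0.24 to 0.19). Pairs past the threshold fell to 0 in both groups with TMM and with Spearman's rho, and in control without controls 2 and 3 or 12 and 13, where 6 libraries allow a smallest p of 0.00278. Without 1 library they numbered 0 to 2 in control and 0 to 1 with beta-glucan. Nr1d1 with Arntl in control reversed to -0.35 with TMM, -0.10 by rank and -0.41 without controls 12 and 13 (-0.23 to 0.57 without 1 library), and to -0.13 to 0.79 with beta-glucan. Dbp with Arntl in beta-glucan was 0.10 by rank and -0.41 to 0.48 without 1 library. The causes were not tested.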

Other observations

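Cipc, which encodes a repressor that binds CLOCK and which was noticed only in the deposited clock terms, had a log2 fold change of 0.46 in the authors' deposited table (adjusted p = 0.0322) and did not pass in edgeR (0.46 ± 0.16, adjusted p = 0.0697). In the 18 sets of 8 values formed by the 9 clock genes and both groups, no library's gap to its neighbour passed Dixon's criterion.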
